A study of Mus musculus with 44 samples.

Results

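The genes described here, 9 of the NRF2 antioxidant system and Sod2 for mitochondrial superoxide removal, were followed by RNA-seq in mouse macrophages derived from bone marrow (BMDMs). They were chosen by name, as the rows of 4 deposited count tables whose gene symbol was Nfe2l2, Keap1, Nqo1, Gclc, Gclm, Slc7a11, Txnrd1, Srxn1, Prdx1 or Sod2. All 10 were found among the 24940 genes listed, and all 10 passed the filter on low counts in each of the 4 tables.

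The 44 libraries formed 22 groups of 2. BMDMs are macrophages grown in culture from bone marrow precursors, here from C57BL/6 mice 8 to 12 weeks old. By the study's methods, BMDMs were held in low serum for 12 h before the ligand. The NCoR table compared wild-type (WT, NCoR flox/flox) with NCoR knockout (NKO, NCoR flox/flox with LysMCre) cells, and in both genotypes the Ncor1 gene is floxed. Both genotypes received vehicle (Veh), KLA (Kdo2 lipid A, a ligand of TLR4), poly I:C (PolyIC, a ligand of TLR3), interferon beta (IFNb) or IL4 for 6 h, or RANKL for 12 h. The RGFP966 table held wild-type cells under Veh, KLA and RGFP966_KLA, where RGFP966 inhibits the histone deacetylase HDAC3. The Pgc1b table held Pgc1b flox/flox cells without Cre (Pgc1b_flox) and with LysMCre (Pgc1b_flox_Cre), each under Veh or KLA. The TBK1i table held wild-type cells under DMSO_Veh, DMSO_KLA and TBK1i_KLA, where TBK1i inhibits the kinase TBK1. Both inhibitors were added at the start of the starvation. LysMCre is driven by the lysozyme 2 promoter and deletes floxed alleles in myeloid cells, so any unrecombined cell keeps its gene. The labels list every sample as BMDM, whereas the column names call the RANKL cells osteoclasts, and the columns of Pgc1b_flox_Cre_KLA carry no time. The study's separate osteoclast culture describes no low serum, so it was not settled whether the RANKL cells had that step.

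NRF2, the product of Nfe2l2, is a transcription factor that KEAP1 holds in the cytoplasm and marks for degradation. Electrophiles and oxidants modify KEAP1, NRF2 then accumulates, and with a small MAF protein it binds antioxidant response elements near genes for glutathione synthesis, NADPH supply and peroxide removal. Much of this control acts on the protein, which RNA-seq does not measure. SOD2 turns superoxide into hydrogen peroxide in mitochondria, and in macrophages its gene is a classical target of NFκB.

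Promoter sequence is shown for the members in which the core of the antioxidant response element lies upstream of the start site, since NRF2 binds that element. The window searched ran from 250 bases before to 50 bases after each start in RefSeq (build GRCm38.p6, that is mm10), on both strands. The core TGACNNNGC, in which N is any base, was found in 5 of the 9 members with an entry, in 7 of 20 other NRF2 targets with an entry, and in 12.4% of all 32851 promoters. Each member was searched at its listed start only, whereas another target counted if any of its starts had a match. The share over all promoters counts each start by itself, so these figures do not have the same basis. The 4 upstream matches are printed on the strand of the gene, with the core in capitals, at chr2:75704870-75704913 (minus strand) for Nfe2l2, chr3:122245398-122245456 (plus) for Gclm, chr10:82859089-82859147 (plus) for Txnrd1 and chr4:116685441-116685499 (plus) for Prdx1. In the latter 3 genes the core is read on the opposite strand.
Nfe2l2: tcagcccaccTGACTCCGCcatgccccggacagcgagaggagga
Gclm: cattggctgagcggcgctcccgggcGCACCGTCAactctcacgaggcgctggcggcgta
Txnrd1: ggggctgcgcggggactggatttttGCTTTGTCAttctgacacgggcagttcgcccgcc
Prdx1: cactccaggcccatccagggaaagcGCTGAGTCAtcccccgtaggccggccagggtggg
The fifth match began at base 29 of Srxn1, with the start counted as base 1, and is not shown. No match was present in this window of Keap1, Nqo1, Slc7a11 or Sod2, and Gclc had no entry.

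The Sod2 promoter is shown for another reason, which is the control of this gene by NFκB. It held no TGACNNNGC but 4 matches to a loose form of the NFκB site, GGG and CC with any 5 bases between them, counting the palindrome-like match at -83 on both strands. These letters also stood in 7 of the 9 members with an entry and in 50.8% of all promoters, so a match in itself says little. Whether NFκB acts on Sod2 through this stretch was not tested. The stretch at chr17:13007720-13007791 (plus strand, bases -119 to -48 of the gene) has the matches in capitals.
Sod2: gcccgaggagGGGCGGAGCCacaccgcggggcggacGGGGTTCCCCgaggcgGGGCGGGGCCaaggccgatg

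Libraries held 8323493 to 16783155 counts in genes, and the floor of 3 counts lay between 0.179 and 0.36 counts-per-million (CPM). The deleted gene Ncor1 was lower in NKO than in WT cells under every ligand, with both NKO libraries below both WT libraries. Ppargc1b, the gene floxed in the Pgc1b table, was not lower with Cre (log2 fold change -0.00 ± 0.29 SE under Veh and 0.38 ± 0.27 under KLA), and since counts over the whole gene do not resolve deleted exons, these are called the libraries labelled Pgc1b_flox_Cre. Date stamps in the column names placed WT_KLA 115 days and WT_RANKL 536 days before WT_Veh, and NKO_KLA 1401 days before WT_KLA. NKO_KLA and the 4 groups of the Pgc1b table, 10 libraries in all, had the pattern of male cells (Y-linked genes and little Xist), and the other 34 that of female cells. These dates and sexes cannot be told apart from the groups in those comparisons.

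The level of each member in every library was set out as CPM scaled by TMM within its table, so that levels may be compared within a table and only read side by side between tables. Across the 44 libraries Slc7a11 spanned the widest range, from 2.13 CPM in WT_IFNb to 786 CPM in TBK1i_KLA. Nqo1 had the lowest levels, with a median of 2.53 CPM, and its libraries held from 6 to 558 counts, so its values were the least precise. The factor itself varied least, since Nfe2l2 ran from 171 CPM in NKO_KLA to 889 CPM in RGFP966_KLA.

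**Figure D1:**
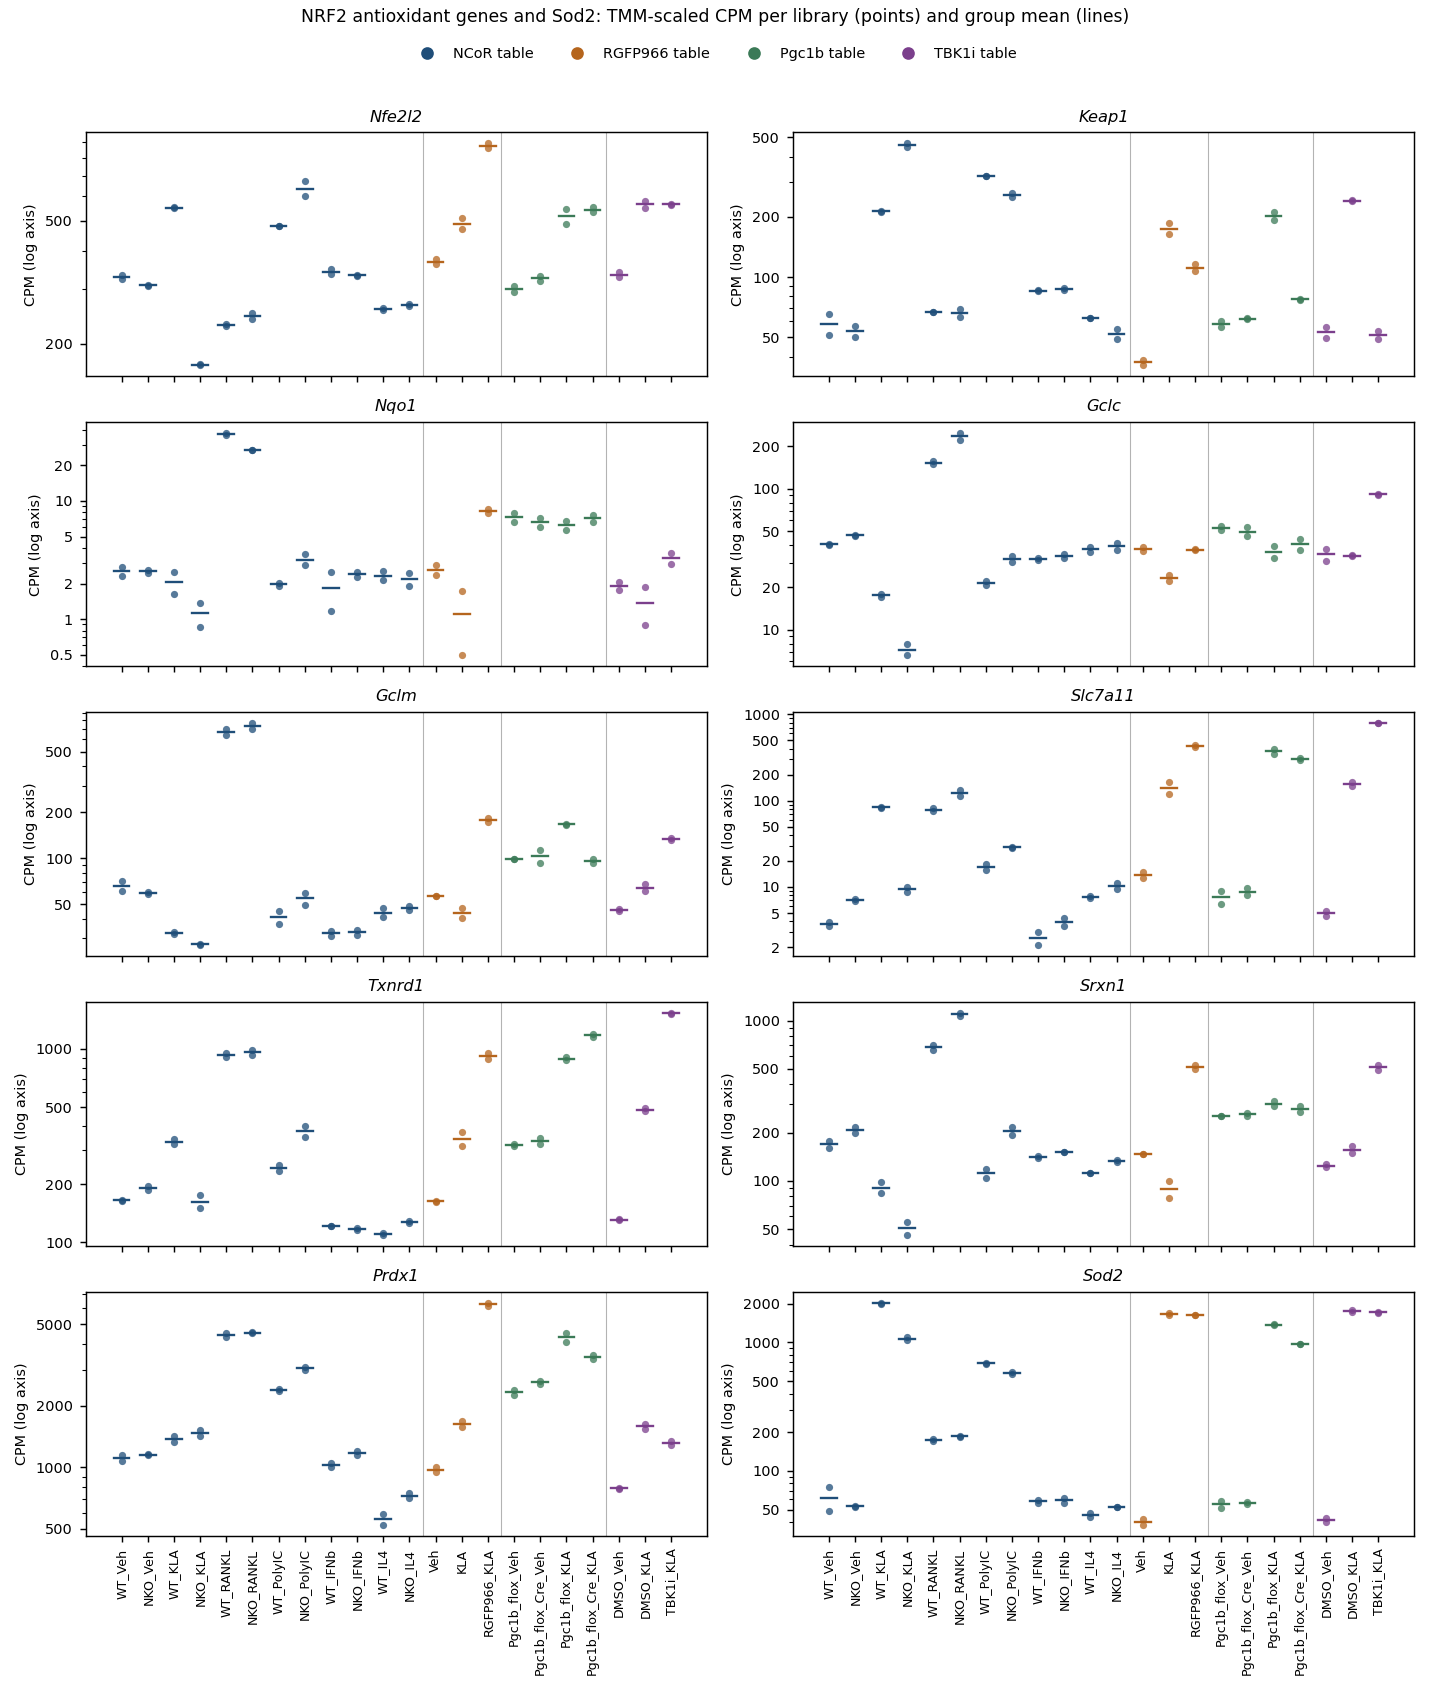
Level of each of the 10 genes in all 44 libraries, as TMM-scaled CPM on a logarithmic axis, with the 22 groups along the horizontal axis, 1 point for each library and a line at the mean of each group. Sod2 lies above 900 CPM in every KLA group and below 80 CPM in every vehicle group, whereas Nqo1, Gclc, Gclm and Srxn1 are highest in the RANKL groups.

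To order genes of different length, CPM were divided by transcript length in kilobases. In WT_Veh the order by CPM per kb began with Prdx1 at 787 ± 39.5 (SD, n = 2), followed by Nfe2l2 at 133 ± 3.02, Srxn1 at 60.3 ± 4.63, Txnrd1 at 48.5 ± 0.285 and Gclm at 32.2 ± 3.26. Next came Sod2 at 16.2 ± 4.74, Keap1 at 13.0 ± 2.21 and Gclc at 11.8 ± 0.0544, and these neighbours did not differ beyond the spread of their libraries. Nqo1 at 1.64 ± 0.195 and Slc7a11 at 0.406 ± 0.0353 CPM per kb closed the order. In WT_KLA Sod2 moved up to the place behind Prdx1, with 529 ± 4.69 against 972 ± 47.9 CPM per kb. In WT_RANKL Prdx1 reached 3140 ± 89.7 CPM per kb, and Gclm with 326 ± 19.1 stood next, ahead of Txnrd1, Srxn1 and Nfe2l2.

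KLA was compared with vehicle in wild-type or flox control cells of all 4 tables, which asks how TLR4 signaling changes these genes in 4 separate sets of cells. Sod2, Slc7a11, Keap1 and Txnrd1 were called higher in all 4 comparisons, and none of the 10 was called lower in all 4. A gene is called here when the adjusted p of edgeR's quasi-likelihood test (Benjamini-Hochberg over all genes of the table) was below 0.05 and the fold change above 1.5. There were 5 members called higher and 3 lower in WT_KLA, 5 and 3 in KLA, 7 and 0 in Pgc1b_flox_KLA, and 6 and 0 in DMSO_KLA. KLA changed much of the transcriptome, with 57.8%, 60%, 48.5% and 58.9% of all genes tested called in these tables in turn, so the number of members called lay near or somewhat above the background. The median log2 fold change of the members was 0.52, 0.58, 0.84 and 0.88, beside -0.14, -0.07, -0.05 and 0.02 over all genes tested.

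Sod2 (chr17:13007839-13018119, plus strand) had the largest log2 fold change of the members in all tables but the Pgc1b table, where Slc7a11 did. It stood at 48.9 and 74.5 CPM in WT_Veh and at 2008 and 2033 CPM in WT_KLA. In the other tables it went from 42.1 and 38.1 to 1622 and 1695 CPM (RGFP966 table), from 51.6 and 58.5 to 1358 and 1392 CPM (Pgc1b table), and from 40.2 and 43.2 to 1713 and 1804 CPM (TBK1i table). Every KLA library lay far above every vehicle library of its table. The log2 fold changes were 5.03 ± 0.12 (adjusted p = 2.1e-15), 5.37 ± 0.07 (9.0e-74), 4.64 ± 0.07 (1.6e-34) and 5.40 ± 0.05, that is 32.7-fold, 41.3-fold, 24.9-fold and 42.2-fold higher.

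Slc7a11 (chr3:50364936-50443613, minus strand) encodes the light chain of the cystine importer that feeds glutathione synthesis. Its level was 3.51 and 3.97 CPM in WT_Veh and 82.7 and 84.0 CPM in WT_KLA, with a log2 fold change of 4.47 ± 0.13 (adjusted p = 7.5e-39). In the Pgc1b table it went from 8.93 and 6.44 to 347 and 395 CPM, and in the TBK1i table from 4.64 and 5.26 to 149 and 165 CPM. The groups did not overlap in any table. In the RGFP966 table the step was from 12.8 and 14.8 to 119 and 164 CPM, with a log2 fold change of 3.37 ± 0.15 against 5.61 ± 0.11 for Pgc1b_flox_KLA and 4.98 ± 0.08 for DMSO_KLA. The difference in step between tables was not tested, as each was scaled on its own.

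Keap1 (chr9:21229730-21239332, minus strand), the gene of the inhibitor, rose together with the factor's targets Slc7a11 and Txnrd1. It went from 51.1 and 65.1 CPM in WT_Veh to 212 and 215 CPM in WT_KLA, from 38.6 and 36.1 to 186 and 164 CPM, from 56.0 and 60.2 to 211 and 193 CPM, and from 49.6 and 56.4 to 241 and 242 CPM. The KLA and vehicle libraries were well apart in each table. Its log2 fold change was 1.88 ± 0.07, 2.22 ± 0.07, 1.80 ± 0.08 and 2.19 ± 0.06 in the order of the tables. Nfe2l2 (chr2:75675513-75704663, minus strand) rose less, from 325 and 335 CPM in WT_Veh to 552 in both WT_KLA libraries, with a log2 fold change of 0.74 ± 0.05 (adjusted p = 1.1e-19). It was called in 3 of the 4 tables and reached 0.41 ± 0.06 in the RGFP966 table.

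Txnrd1 (chr10:82859206-82897724, plus strand) encodes the cytosolic reductase of thioredoxin. It went from 166 and 164 CPM to 322 and 340.3 CPM in the NCoR table, and its log2 fold change ran from 1.00 ± 0.06 there to 1.88 ± 0.04 in the TBK1i table. Prdx1 (chr4:116685599-116700000, plus strand), a peroxiredoxin that uses thioredoxin to reduce peroxides, was at 1148 and 1069.6 CPM in WT_Veh and at 1417 and 1322 CPM in WT_KLA. The libraries did not overlap, yet the log2 fold change of 0.30 ± 0.05 stayed below the fold threshold, whereas Prdx1 was called higher in the other 3 tables with 0.74 ± 0.05, 0.89 ± 0.06 and 1.00 ± 0.04. Srxn1 (chr2:152105524-152111376, plus strand), which repairs overoxidized peroxiredoxins, moved the other way in the NCoR table, from 178 and 160.0 to 83.8 and 97.8 CPM (log2 fold change -0.90 ± 0.08), and in the RGFP966 table with -0.72 ± 0.07, a call lost at -0.55 without KLA replicate 1. It was not called in the tables of Pgc1b or TBK1i, with 0.25 ± 0.07 and 0.33 ± 0.05.

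The 2 subunits of glutamate-cysteine ligase, the enzyme that limits glutathione synthesis, did not follow the cystine importer. Gclc (chr9:77754535-77794489, plus strand), the catalytic subunit, fell from 40.2 and 40.5 CPM in WT_Veh to 17.2 and 18.0 CPM in WT_KLA (log2 fold change -1.20 ± 0.11, adjusted p = 4.2e-15). It also fell in the RGFP966 table (-0.69 ± 0.10), while the Pgc1b and TBK1i tables gave -0.56 ± 0.12 and -0.03 ± 0.09 without a call. Without Pgc1b_flox_Veh replicate 1 or Pgc1b_flox_KLA replicate 2 the Pgc1b table gave a called -0.61 or -0.71. Gclm (chr3:122245557-122267215, plus strand), the modifier subunit, was the member called in both directions. It fell from 61.6 and 71.2 to 32.1 and 33.2 CPM in the NCoR table (-1.02 ± 0.10) and rose from 99.3 and 99.4 to 168 and 166 CPM in the Pgc1b table (0.75 ± 0.08). The RGFP966 and TBK1i tables lay between with -0.36 ± 0.08 and 0.49 ± 0.07, neither called. Nqo1 (chr8:107388225-107403205, minus strand), a quinone reductase often used as a readout of NRF2, was not called in WT_KLA (-0.30 ± 0.35), Pgc1b_flox_KLA (-0.23 ± 0.26) or DMSO_KLA (-0.49 ± 0.41). In the RGFP966 table it fell from 2.34 and 2.88 to 1.72 and 0.494 CPM (-1.28 ± 0.36, adjusted p = 0.00088). The lower KLA library there held 6 counts, and without it (KLA replicate 2) Nqo1 was not called at -0.58.

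**Figure D2:**
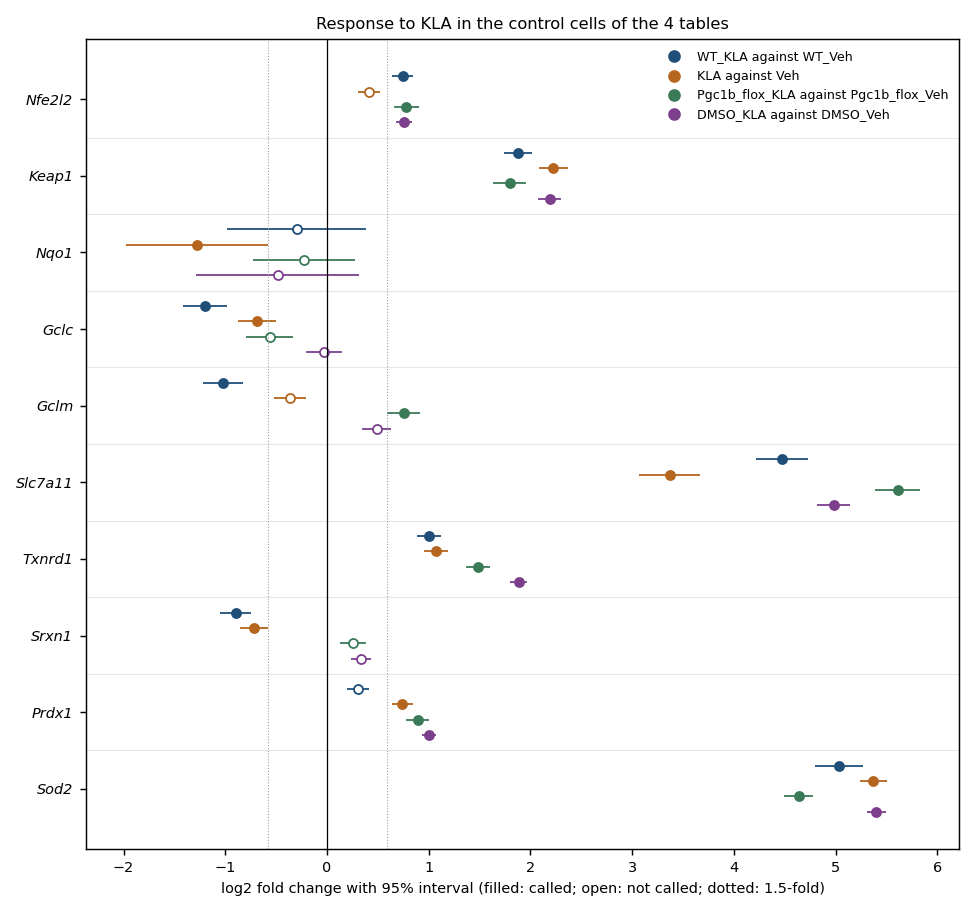
Log2 fold change of each gene in KLA against vehicle cells of the 4 tables, with 95% intervals. Filled points were called and open points were not, and dotted lines mark 1.5-fold; Sod2, Slc7a11, Keap1 and Txnrd1 lie to the right in every table, whereas Gclc and Srxn1 pass the right line in no table and Gclm passes the left line in the NCoR table and the right line in the Pgc1b table.

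These directions rest on TMM scaling, which places the median gene near 0. With library totals alone the median over all genes moved by -0.73, -0.77, -0.69 and -0.78 in the NCoR, RGFP966, Pgc1b and TBK1i tables, and the members then split into 3 higher and 4 lower, 3 and 4, 4 and 2, and 4 and 2. Sod2, Slc7a11 and Keap1 kept their calls in all 4 tables. Nfe2l2 lost all 3 of its calls, at 0.01 in WT_KLA, 0.09 in Pgc1b_flox_KLA and -0.02 in DMSO_KLA. Prdx1 likewise lost all 3, at -0.03, 0.20 and 0.22 in the RGFP966, Pgc1b and TBK1i tables. Txnrd1 lost its call in the NCoR table at 0.28 and in the RGFP966 table at 0.31, and Gclm lost its rise in the Pgc1b table at 0.06. Nqo1 was called lower in all 4 tables under this scaling.

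Other genes of the pathway moved both ways with KLA. Of 23 other NRF2 targets tested, 5 were called higher and 9 lower in WT_KLA, with a median log2 fold change of -0.19. Txn1 (thioredoxin, 1.90 ± 0.06) and Gsr (glutathione reductase, 1.45 ± 0.07) rose most, and Cbr3 (a carbonyl reductase, -2.73 ± 0.24) and Idh1 (cytosolic isocitrate dehydrogenase, -2.17 ± 0.07) fell most among those of sufficient level. Of 10 regulators and partners of NRF2, 5 were called higher and 0 lower, with Maff, a small MAF protein, at 2.88 ± 0.27 and Fbxw11, a substrate receptor of ubiquitin ligase, at 1.84 ± 0.06. Among 15 other superoxide, peroxide and thiol enzymes 6 were higher and 5 lower. Prdx5, a peroxiredoxin also found in mitochondria, went from 134 to 786 CPM on average (2.56 ± 0.06), and Gpx1, a glutathione peroxidase, went from 439 to 142 CPM (-1.63 ± 0.06). Of the 6 genes of the phagocyte NADPH oxidase, which makes superoxide, 4 were called higher, with Cybb, its catalytic subunit, at 2.02 ± 0.06.

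RANKL, the cytokine that drives osteoclast formation, was compared at 12 h with vehicle at 6 h in WT cells. The WT_RANKL libraries carried stamps 536 days before WT_Veh, and their column names call the cells osteoclasts. Time, date and any difference in culture, such as medium or serum, therefore cannot be told apart from RANKL here. In WT_RANKL 8 members were called higher and 0 lower against WT_Veh, whereas 43.8% of all genes were called in either direction and 24.1% higher. The median log2 fold change was 2.00 for the members and 0.02 for all genes. The 2 members not called were the regulators themselves. Nfe2l2 was at 228 and 232 CPM, below both WT_Veh libraries (-0.52 ± 0.05), and Keap1 at 66.5 and 66.8 CPM (0.20 ± 0.07). Libraries of this comparison share WT_Veh with the WT_KLA comparison and with those for the other ligands.

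Nqo1, at a few CPM in WT_Veh, reached 36.5 and 37.4 CPM in WT_RANKL beside 2.75 and 2.33 CPM in WT_Veh, 14.5-fold higher (log2 fold change 3.86 ± 0.17, adjusted p = 1.3e-28). Gclm went from 61.6 and 71.2 to 701 and 646 CPM, 10.1-fold higher (3.34 ± 0.07). Slc7a11 reached 81.4 and 75.2 CPM, 20.9-fold higher (4.39 ± 0.12). For all 3 genes both RANKL libraries stood far above both vehicle libraries. Gclc rose from 40.2 and 40.5 to 158 and 149 CPM (1.93 ± 0.07), and so both subunits of the ligase moved in the direction of the importer. Txnrd1 reached 950.5 and 904 CPM (2.49 ± 0.06), Srxn1 699.8 and 659.9 CPM (2.01 ± 0.07) and Prdx1 4514 and 4335 CPM (2.00 ± 0.05). Sod2 rose less at 12 h of RANKL than at 6 h of KLA, to 169.9 and 176 CPM (1.49 ± 0.12, adjusted p = 1.3e-08).

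Other genes of the pathway followed. Of 23 other NRF2 targets 16 were called higher and 2 lower in WT_RANKL, with a median log2 fold change of 1.12. Gsta3, a glutathione transferase, went from 1.17 to 63.8 CPM on average (5.76 ± 0.20) and Me1, the cytosolic malic enzyme, from 3.71 to 23.6 CPM (2.67 ± 0.18), while Ephx1, the microsomal epoxide hydrolase, fell (-2.15 ± 0.12). Of the thiol and peroxide enzymes 8 of 15 were higher and 0 lower, with Glrx (glutaredoxin) at 2.23 ± 0.06 and Prdx6 at 1.97 ± 0.08. Of the 6 NADPH oxidase genes none was called by edgeR, although 4 had an unadjusted p below 0.05. Sqstm1, which encodes p62, a protein that can bind KEAP1, was higher (0.76 ± 0.06), and Bach1, a repressor at antioxidant response elements, was lower (-0.72 ± 0.06).

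The RANKL libraries differed from all others in their cell markers. All 5 neutrophil markers (Elane, Ly6g, Mpo, Ngp and S100a8) were called higher, with a summed level of 750.8 to 831.6 CPM in WT_RANKL and 1050 to 1076 CPM in NKO_RANKL against 2.12 to 5.16 CPM in WT_Veh, and at most 21.8 CPM in every other group. Elane, Ly6g and Mpo were at 0 in WT_Veh. All 4 B cell markers and all 4 stromal markers were also called higher, at 7.88 to 8.24 CPM against 2.20 to 2.26 CPM and at 175 to 196 CPM against 75.8 to 84.3 CPM. Of 7 macrophage markers 1 was called higher and 5 lower, although their sum was higher (23260 to 23580 against 16790 to 17170 CPM). Of 5 osteoclast markers 3 were called higher and 0 lower, with a sum of 180.9 to 188 CPM against 132 to 147 CPM. Ctsk was at 24.1 CPM in WT_RANKL and 25.1 CPM in WT_Veh on average, Acp5 at 46.3 and 24.4 CPM, and Mmp9 at 93.1 and 79.8 CPM. The part of these other cells in the rise of the NRF2 genes was not tested, and in bulk samples more cells of a type and more RNA per cell cannot be told apart.

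Poly I:C, which acts through TLR3, raised Sod2 and Keap1 as well. In WT_PolyIC 4 members were called higher and 3 lower, against 47.2% of all genes called in either direction. Sod2 reached 679 and 696 CPM, 11.1-fold above WT_Veh (3.48 ± 0.12), and Keap1 318 and 320.1 CPM (2.46 ± 0.07), both without overlap with vehicle. Slc7a11 was at 18.6 and 15.9 CPM (2.20 ± 0.17) and Prdx1 at 2419.6 and 2361 CPM (1.11 ± 0.05). Gclc (22.4 and 20.7 CPM, -0.91 ± 0.10), Gclm (45.0 and 37.4 CPM, -0.69 ± 0.09) and Srxn1 (119 and 104 CPM, -0.60 ± 0.07) fell. Txnrd1 and Nfe2l2, both at 0.55, and Nqo1 (-0.36 ± 0.32) were not called. With DESeq2, or its size factors in edgeR, Txnrd1 and Nfe2l2 were called at 0.59 each and Srxn1 was not called (-0.56), so that DESeq2 called 8 members. Library totals alone shifted the median gene by -0.64 here and split the members 3 higher and 4 lower, with Prdx1 losing its call at 0.46 and Nqo1 gaining one. The falls of Gclm and Srxn1 were close to the threshold, and without WT_PolyIC replicate 2 they were -0.56 and -0.51, without a call, while Txnrd1 was called at 0.60. Leaving out a vehicle library had the same effect on each, on Srxn1 without WT_Veh replicate 1 (-0.52) and on Gclm without WT_Veh replicate 2 (-0.58). Of 23 other NRF2 targets 2 were higher and 8 lower, with Txn1 at 2.05 ± 0.06 and Idh1 at -2.71 ± 0.07.

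IFNb and IL4 moved few members. With IFNb 1 member was called against 6.47% of all genes. Gclm was at 30.9 and 33.8 CPM, about the level it had in WT_KLA and below both vehicle libraries (-1.04 ± 0.09, adjusted p = 3.7e-13). Sod2 was at 56.5 and 59.3 CPM, between the vehicle libraries (-0.09 ± 0.12). Keap1 at 84.8 and 85.7 CPM lay above both vehicle libraries without reaching the fold threshold (0.55 ± 0.07), and was called at 0.74 without WT_Veh replicate 2. The other members ran from -0.51 (Slc7a11) to 0.06 (Nfe2l2), and without WT_IFNb replicate 1 Nqo1 (-1.10) and Slc7a11 (-0.81) were called lower. With IL4 1 member was called higher and 3 lower against 13.1% of all genes. Prdx1 was at 588 and 524 CPM, its lowest level in any group (2.00-fold lower, adjusted p = 3.4e-24), and Slc7a11 at 7.94 and 7.38 CPM (1.03 ± 0.18). Gclm and Srxn1 each reached -0.59, just past the fold threshold, and were not called with DESeq2 or its size factors (-0.58 for each). Without WT_Veh replicate 1 Srxn1 was at -0.51, and Gclm was at -0.48 without WT_Veh replicate 2 and at -0.49 without WT_IL4 replicate 2. Sod2 was at 47.0 and 43.9 CPM and not called (-0.44 ± 0.13), but was called at -0.71 without WT_Veh replicate 1. Txnrd1 at -0.58 was not called either, and was called at -0.59 without WT_Veh replicate 2 or WT_IL4 replicate 2. The other members ran from -0.35 (Nfe2l2) to 0.10 (Keap1). Of the other NRF2 targets 0 rose and 4 fell with IFNb, and 1 rose and 2 fell with IL4, among them Gsr in both (-0.64 ± 0.07 and -0.91 ± 0.07).

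**Figure D3:**
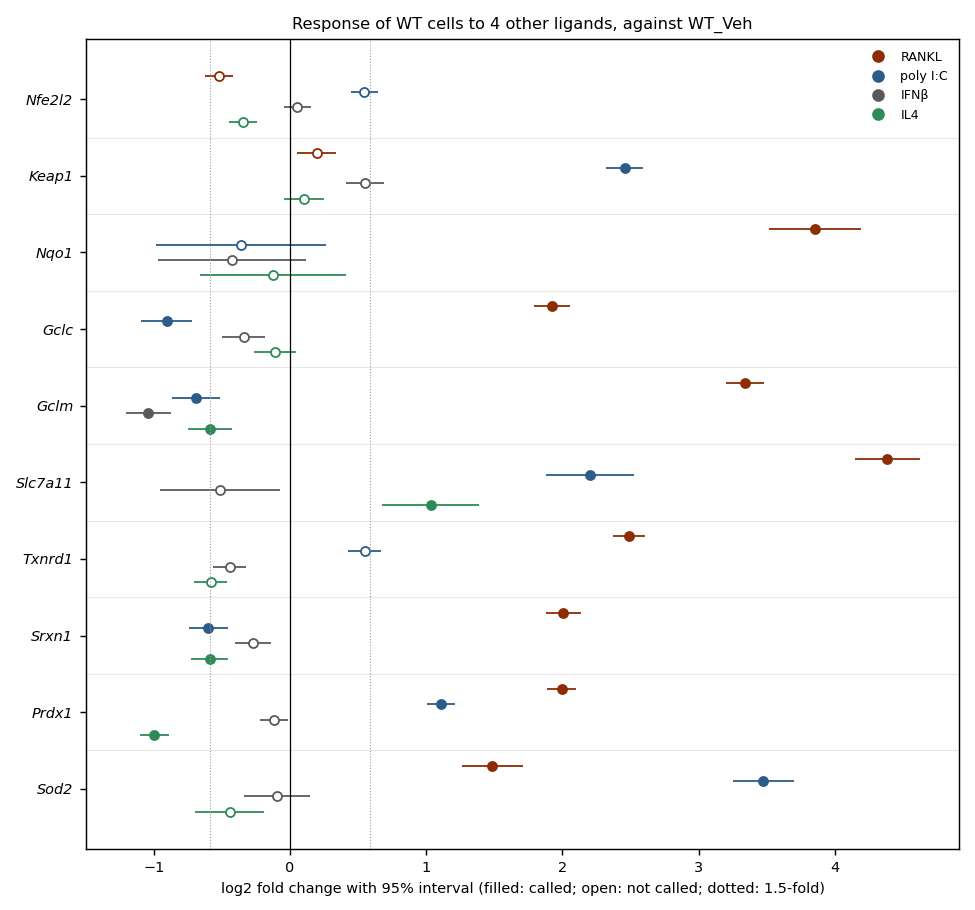
Log2 fold change of each gene in WT cells with RANKL, poly I:C, IFNb or IL4 against WT_Veh, with 95% intervals, filled where called and with dotted lines at 1.5-fold. RANKL lies past the right line for every gene but Nfe2l2 and Keap1, and poly I:C for Keap1, Slc7a11, Prdx1 and Sod2.

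NCoR, encoded by Ncor1, is a corepressor scaffold that carries HDAC3 to chromatin, and NKO cells were set against WT cells under each of the 6 conditions to ask where these genes depend on it. Under vehicle 1 member was called, against 6.21% of all genes. Slc7a11 was at 6.96 and 7.30 CPM in NKO_Veh and at 3.51 and 3.97 CPM in WT_Veh (0.93 ± 0.18, adjusted p = 3.9e-05). Sod2 was at 53.3 and 52.4 CPM, within the span of the WT_Veh libraries (-0.22 ± 0.12), and the other members ran from -0.15 (Gclm) to 0.30 (Srxn1). None of 23 other NRF2 targets was called by edgeR, although 12 had an unadjusted p below 0.05 and 9 an adjusted p below 0.05.

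Under KLA, where NKO_KLA and WT_KLA differed in date and sex, more of all genes and more members were called than under any other condition. In NKO_KLA against WT_KLA 1 was called higher and 6 lower, where 40% of all genes were called in either direction and 19% lower, and the median was -0.89 for the members and 0.07 for all genes. Slc7a11 stood at 10.1 and 8.76 CPM in NKO_KLA and at 82.7 and 84.0 CPM in WT_KLA, 8.82-fold lower (-3.14 ± 0.12, adjusted p = 3.1e-32). Nfe2l2 was at 171 and 172 CPM against 552 in both WT_KLA libraries (-1.69 ± 0.06, adjusted p = 6.5e-35), its lowest level of any group. Keap1 went the opposite way, to 466 and 446 CPM against 212 and 215 (1.09 ± 0.06), its highest level of any group. The genotypes did not overlap in any of these genes.

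Gclc was lower, at 6.62 and 7.91 CPM against 17.2 and 18.0 CPM (-1.28 ± 0.15), and Gclm at 27.8 and 27.1 CPM was not called (-0.25 ± 0.12). Txnrd1 stood at 175 and 150.4 CPM against 322 and 340.3 CPM (-1.02 ± 0.06), and Srxn1 at 55.3 and 46.0 CPM against 83.8 and 97.8 CPM (-0.84 ± 0.09). Prdx1 was at 1525 and 1425 CPM, above both WT_KLA libraries (1417 and 1322 CPM) but not called (0.11 ± 0.05, adjusted p = 0.076). Nqo1 was at 1.37 and 0.857 CPM against 1.64 and 2.50 CPM (-0.87 ± 0.43, adjusted p = 0.076), and without NKO_KLA replicate 1 it was called at -1.26. Sod2 was lower at 1095 and 1045 CPM against 2008 and 2033 CPM (-0.92 ± 0.10, adjusted p = 8.1e-07). Sod2 was still higher in NKO_KLA than in NKO_Veh, with a log2 fold change of 4.34 ± 0.12 (a comparison in which 61.2% of all genes were called). Slc7a11 was at 0.40 ± 0.15 there without a call, and Nfe2l2 was lower (-0.85 ± 0.05). NKO_KLA had an earlier date stamp than NKO_Veh and the male in place of the female pattern. Date and sex therefore cannot be told apart from KLA in this comparison.

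The difference between the NKO effect under KLA and under vehicle was tested as an interaction, for which 36.9% of all genes and 7 members were called. It was -4.07 ± 0.21 for Slc7a11, -1.60 ± 0.08 for Nfe2l2, -1.50 ± 0.17 for Gclc, -1.24 ± 0.09 for Txnrd1, -1.14 ± 0.11 for Srxn1 and 1.21 ± 0.10 for Keap1. For Sod2 it was -0.69 ± 0.16 (adjusted p = 0.0018). The Sod2 value turned on the spread of the vehicle libraries, since it was -0.42 without WT_Veh replicate 1 and -1.03 without WT_Veh replicate 2, and it was not called with only the compared groups in the fit (adjusted p = 0.089). NKO_KLA was stamped 1401 days before WT_KLA and had the pattern of male cells. Its values were also set against those of KLA cells from the other 3 tables in a joint fit of 10864 genes. There 8, 9 and 8 members were called with the controls KLA, Pgc1b_flox_KLA and DMSO_KLA. All 3 controls were stamped even later than WT_KLA, and only Pgc1b_flox_KLA shared the male pattern. Changing the control therefore cannot separate genotype from date, and shows only how far a value depends on the WT_KLA libraries. Slc7a11 was lower by all 3 controls (-4.23, -5.35 and -4.12), Nfe2l2 likewise (-1.84, -1.65 and -1.80) and Keap1 higher (1.06, 1.12 and 0.85). Gclm, not called against WT_KLA, was called lower by all 3 (-1.01, -2.66 and -1.30), as were Gclc, Txnrd1 and Srxn1. Nqo1 (-2.50) and Prdx1 (-1.60) were called lower by the Pgc1b_flox_KLA control alone. Sod2 was lower by the KLA and DMSO_KLA controls (-0.95 and -0.79) and not called by the male-pattern Pgc1b_flox_KLA control (-0.41).

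Other NRF2 targets showed 4 higher and 8 lower of 23 in NKO_KLA, with Gsr (-1.93 ± 0.07) and Me1 (-1.88 ± 0.35) lowest and Tkt (transketolase, 1.01 ± 0.06) and Pgd (an enzyme of the pentose phosphate pathway, 0.82 ± 0.06) highest. Of the superoxide, peroxide and thiol enzymes 6 of 15 were called higher and 0 lower, beside the 40% of all genes called in either direction. Gpx1 went from 142 CPM in WT_KLA to 545 CPM in NKO_KLA on average (1.94 ± 0.06) and Sod1, the cytosolic superoxide dismutase, from 68.8 to 148 CPM (1.10 ± 0.07). Bach1 was higher (0.89 ± 0.06) and Maff lower (-1.14 ± 0.23).

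Under RANKL and poly I:C the called members were higher in NKO cells, not lower. With RANKL these were Srxn1 (1069.5 and 1115 CPM against 699.8 and 659.9, 0.68 ± 0.06), Slc7a11 (112 and 132 CPM against 81.4 and 75.2, 0.64 ± 0.08) and Gclc (224 and 248 CPM against 158 and 149, 0.62 ± 0.06), that is 3 members against 13.2% of all genes. Each lay little above the fold threshold, and with library totals alone none was called (0.58, 0.54 and 0.52 in this order). Without WT_RANKL replicate 2 or NKO_RANKL replicate 2, Srxn1 alone was called, with Slc7a11 at 0.58 and 0.52 and Gclc at 0.58 and 0.54. Nqo1 was at 27.2 and 26.9 CPM, below both WT_RANKL libraries but not called (-0.45 ± 0.13). With poly I:C these were Srxn1 (216 and 195 CPM against 119 and 104, 0.88 ± 0.07), Slc7a11 (29.1 and 28.2 CPM against 18.6 and 15.9, 0.73 ± 0.12) and Txnrd1 (399 and 352 CPM against 249.9 and 232, 0.64 ± 0.06), where 5.93% of all genes were called. Without NKO_PolyIC replicate 1 Txnrd1 was at 0.54 and Gclc, at 0.56 ± 0.10 with all libraries, was called at 0.62, as it was without WT_PolyIC replicate 1. The remaining members were not called and ran from -0.00 (Keap1) to 0.13 (Gclm) with RANKL and from -0.31 (Keap1) to 0.69 (Nqo1) with poly I:C. Sod2 was not called in either (0.10 ± 0.11 and -0.25 ± 0.10). The interactions with vehicle, tested by edgeR, called none of the members under RANKL, poly I:C, IFNb or IL4, where 14.2%, 3.24%, 0.604% and 0.604% of all genes were called. An unadjusted p below 0.05 was found for 5, 7, 2 and 4 of the 10, and an adjusted p below 0.05 for 4, 5, 0 and 1. DESeq2 called 0 in each. The zeros under RANKL, poly I:C and IL4 turned on single libraries, whereas that under IFNb did not. Gclm and Srxn1 were called under poly I:C, at 0.59 to 0.70 and 0.64 to 0.67, in fits without NKO_Veh replicate 2, WT_PolyIC replicate 1 or NKO_PolyIC replicate 2. Without WT_Veh replicate 1 Gclm was called at 0.66, and without WT_Veh replicate 2 Srxn1 at 0.65. Sod2 was called under RANKL at 0.60 and under IL4 at 0.70 without WT_Veh replicate 1.

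With IFNb and with IL4 no member was called between genotypes by edgeR, where 3.8% and 4.24% of all genes were called. DESeq2 called 0 in both. An unadjusted p below 0.05 was found for 2 and 5 members, of which 1 and 5 passed the adjusted p without the fold threshold. Under IL4 the differences of the members ran from -0.27 (Keap1) to 0.42 (Slc7a11), with Prdx1 at 705 and 747 CPM in NKO_IL4 against 588 and 524 CPM in WT_IL4 (0.39 ± 0.05). Under IFNb they ran from -0.05 (Txnrd1) to 0.61 (Slc7a11), and Slc7a11 was called at 0.91 without WT_IFNb replicate 1. Osteoclast markers moved with the genotype under most conditions, with 4 of 5 called higher in NKO_Veh, NKO_PolyIC, NKO_IFNb and NKO_IL4 and a summed level of 806 to 818 CPM in NKO_Veh against 132 to 147 CPM in WT_Veh. Neutrophil markers were higher in NKO_RANKL than WT_RANKL, as given above. The part of either in the NKO values was not tested.

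**Figure D4:**
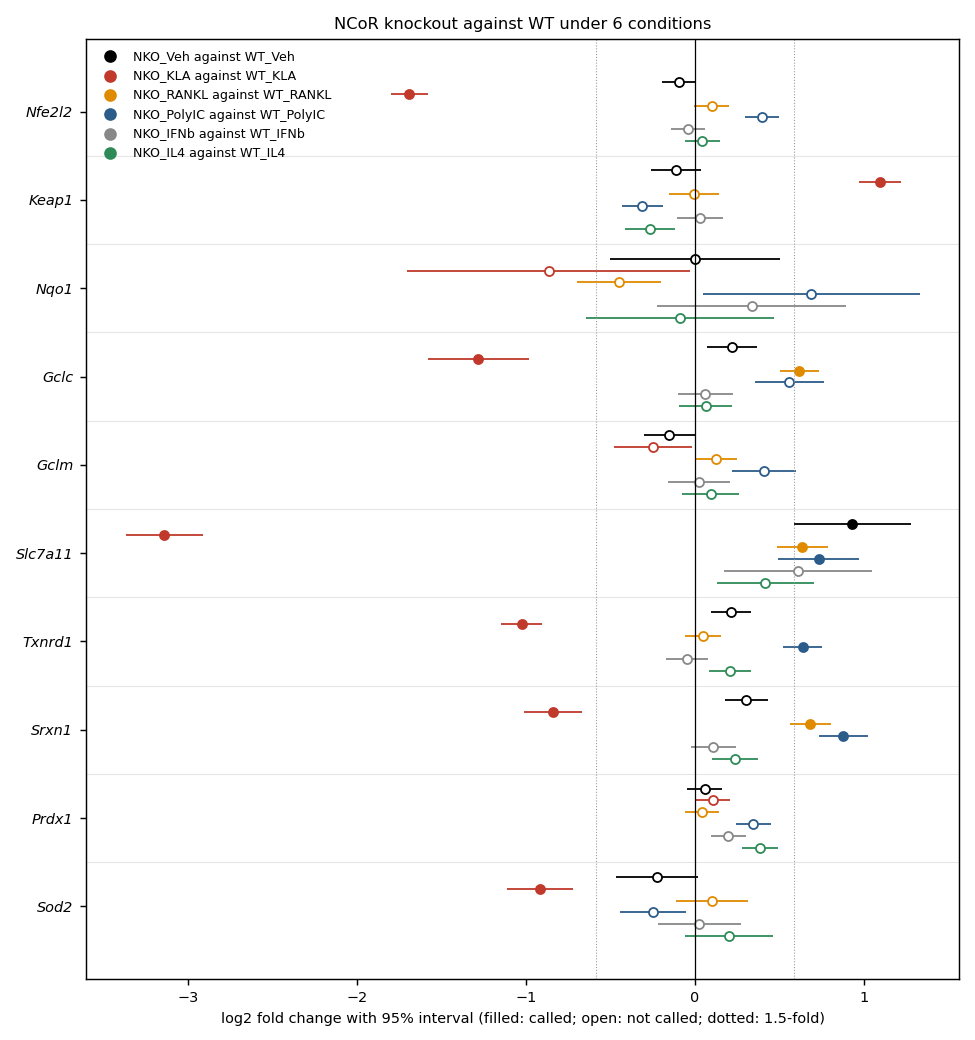
Log2 fold change of each gene in NKO against WT cells under the 6 conditions, with 95% intervals, filled where called and with dotted lines at 1.5-fold. Under KLA 6 of the 10 genes have filled points to the left and Keap1 has one to the right, Nqo1 has an open point past the left line, and the called points under vehicle, RANKL and poly I:C lie to the right.

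RGFP966, the HDAC3 inhibitor, was compared with KLA alone in wild-type cells. In RGFP966_KLA 8 members were called higher and 1 lower, where 25.4% of all genes were called in either direction and 15.8% higher, and the median was 1.51 for the members and 0.03 for all genes. Prdx1 went from 1572 and 1678 CPM to 6124 and 6358 CPM, 3.84-fold higher (1.94 ± 0.06, adjusted p = 2.1e-46). Srxn1 went from 77.9 and 100.5 to 531 and 497 CPM (2.52 ± 0.07) and Txnrd1 from 314 and 369.9 to 953 and 888 CPM (1.43 ± 0.06). With the inhibitor every library of these thioredoxin and peroxide genes lay above both libraries of KLA alone.

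For glutathione synthesis, Gclm rose from 40.5 and 47.5 to 184 and 173 CPM (2.01 ± 0.07), Slc7a11 from 119 and 164 to 437 and 418 CPM (1.59 ± 0.12, adjusted p = 1.9e-06) and Gclc from 22.1 and 24.5 to 37.5 and 36.6 CPM (0.67 ± 0.10), back to the level of vehicle cells (38.8 and 36.5 CPM). Nqo1 went from 1.72 and 0.494 to 8.48 and 7.95 CPM (2.94 ± 0.31). Nfe2l2 was higher at 889 and 857 CPM against 471 and 509.5 CPM (0.83 ± 0.06), and Keap1 lower at 116 and 107 CPM against 186 and 164 CPM (-0.65 ± 0.07). Sod2 was at 1622 and 1642 CPM beside 1622 and 1695 CPM, and its difference of -0.02 ± 0.05 had a 95% interval within the fold threshold on both sides (adjusted p = 0.74). Of 23 other NRF2 targets 11 were higher and 1 lower, among them Cbr3 (2.19 ± 0.24) and the transporter gene Abcc1 (1.36 ± 0.06), and Sqstm1 went from 403 to 1331 CPM on average (1.72 ± 0.06). RGFP966_KLA replicate 2 carried a stamp 14 days after the rest of the table, and its values lay next to those of replicate 1. Keap1 was at -0.56 without KLA replicate 1 and then not called. Neutrophil markers summed to 20.5 to 21.8 CPM with RGFP966 and 4.59 to 6.43 CPM without, and their part was not tested.

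TBK1 is a kinase downstream of TLR4 and TLR3 that drives type I interferon and also phosphorylates autophagy receptors. Against DMSO_KLA, 6 members were called higher and 1 lower in TBK1i_KLA, where 33.3% of all genes were called in either direction and 15% higher, and the median was 1.16 for the members and 0.01 for all genes. Slc7a11 stood at 786 CPM in both TBK1i_KLA libraries and at 149 and 165 CPM in DMSO_KLA, 5.01-fold higher (2.33 ± 0.05). Txnrd1 went from 476 and 492 to 1531 and 1521 CPM, 3.15-fold higher (1.66 ± 0.04), and Srxn1 from 149 and 164 to 527 and 493 CPM, 3.26-fold higher (1.70 ± 0.05). Slc7a11 and Txnrd1 reached in these cells their highest level of any group.

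Gclc rose from 33.9 and 33.4 to 91.1 and 92.0 CPM (1.44 ± 0.08), Gclm from 68.0 and 61.1 to 135 and 132 CPM (1.05 ± 0.07) and Nqo1 from 0.884 and 1.85 to 3.61 and 2.93 CPM (1.27 ± 0.40, adjusted p = 0.0033). The call of Nqo1 was lost without DMSO_KLA replicate 1 (0.82) or TBK1i_KLA replicate 1 (1.10). Keap1 fell from 241 and 242 CPM to 48.8 and 53.7 CPM, 4.72-fold lower (-2.24 ± 0.06, adjusted p = 3.0e-277). That is the level of vehicle cells (49.6 and 56.4 CPM), from which it differed by -0.05 ± 0.07. Nfe2l2 was at 561 and 568 CPM beside 552 and 581 CPM (-0.00 ± 0.04), Prdx1 at 1346 and 1290.2 CPM beside 1543 and 1623 CPM (-0.26 ± 0.04, not called) and Sod2 at 1699.5 and 1734 CPM beside 1713 and 1804 CPM (-0.03 ± 0.03, adjusted p = 0.41). Keap1 thus stood at its vehicle level in the presence of KLA and TBK1i, while Sod2 stood at its level with KLA alone. With library totals alone the median gene moved by 0.37 in this comparison.

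Of 23 other NRF2 targets 9 were higher and 2 lower with TBK1i, with Cat (catalase) at 1.71 ± 0.05 and Txn1 at -0.72 ± 0.04. Sqstm1 went from 919 to 4277 CPM on average (2.22 ± 0.04), and Mafk, a small MAF protein, fell (-1.62 ± 0.09). Among the peroxide and thiol enzymes 1 was higher and 4 lower, with Glrx at -1.42 ± 0.06. The inhibitor comparisons come from different tables with controls of their own. In both, Nqo1, Gclc, Gclm, Slc7a11, Txnrd1 and Srxn1 were called higher, Keap1 was called lower, and Sod2 was not called, whereas Nfe2l2 and Prdx1 were called with RGFP966 alone. The difference between the inhibitors was not tested. No group received an inhibitor without KLA. An effect of an inhibitor on resting cells therefore cannot be told apart from one on the response to KLA.

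**Figure D5:**
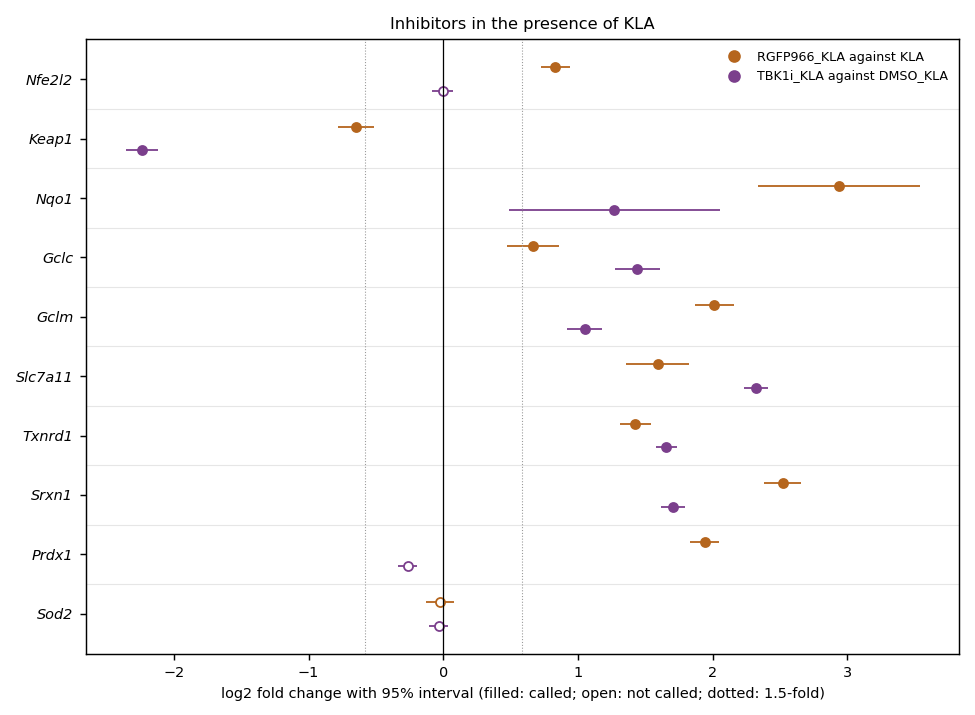
Log2 fold change of each gene with an inhibitor and KLA against KLA alone, with 95% intervals, for RGFP966 (HDAC3) and TBK1i (TBK1), filled where called and with dotted lines at 1.5-fold. Of the 10 genes, 6 lie past the right line and Keap1 past the left line for both inhibitors, and Sod2 lies at 0 for both.

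PGC1β, encoded by Ppargc1b, is a coactivator best known for mitochondrial genes. Under vehicle none of the members was called in the libraries labelled Pgc1b_flox_Cre against Pgc1b_flox by edgeR, where 0.303% of all genes were called. Only 1 of the 10 had an unadjusted p below 0.05, none passed the adjusted p, and DESeq2 called 0. The differences ran from -0.15 (Nqo1) to 0.22 (Slc7a11). Under KLA 0 were called higher and 2 lower, where 26.1% of all genes were called. Keap1 was at 77.9 and 76.5 CPM in Pgc1b_flox_Cre_KLA and at 211 and 193 CPM in Pgc1b_flox_KLA (-1.39 ± 0.08, adjusted p = 2.0e-16). Gclm was at 98.7 and 92.7 CPM against 168 and 166 CPM (-0.81 ± 0.09, adjusted p = 6.1e-10). In both genes the Cre libraries under KLA lay near the vehicle libraries of the same table, which held 56.0 to 62.1 CPM of Keap1 and 93.8 to 114 CPM of Gclm.

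Sod2, at 979 and 967 CPM against 1358 and 1392 CPM, was lower without reaching the fold threshold (-0.50 ± 0.06). Slc7a11 (297 and 314 CPM against 347 and 395 CPM, -0.28 ± 0.08) and Prdx1 (3368 and 3538 CPM against 4072 and 4542 CPM, -0.32 ± 0.06) were not called, and Txnrd1 was above its controls without a call (1194 and 1153 CPM against 874 and 905 CPM, 0.40 ± 0.06). The other members ran from -0.11 (Srxn1) to 0.19 (Nqo1). The interaction of Cre with KLA called the same 2 genes, with -1.48 ± 0.12 for Keap1 and -0.87 ± 0.12 for Gclm, against 22.8% of all genes. Slc7a11 was called too at -0.73 without Pgc1b_flox_Veh replicate 1 and at -0.62 without Pgc1b_flox_Cre_Veh replicate 1, and Sod2 at -0.62 without Pgc1b_flox_Veh replicate 2. Of the other NRF2 targets 2 were higher and 4 lower, with Hmox1 (heme oxygenase, -1.63 ± 0.06, from 1312 to 424 CPM on average) and Osgin1 (-1.88 ± 0.25) lowest. Sqstm1 and Maff were higher (0.84 ± 0.06 and 1.85 ± 0.15) and Bach1 lower (-1.36 ± 0.09). Of 7 macrophage markers 4 were called lower, with a sum of 9979 to 9992 CPM against 15230 to 15460 CPM, and their part was not tested.

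Across the 12 groups of the NCoR table, the genes most like each of 3 members were found among 9795 genes of sufficient level by Pearson's r of group mean log2 CPM, given as a description since the groups share genotypes and treatments. For Sod2 these were Itgal (0.997), Tma16 (0.994) and Gpd2 (0.992). For Nqo1 they were Gclm (0.983), Ola1 (0.983) and Ngp (0.982), the last of which is a neutrophil marker high in the RANKL groups. Sufficient level meant a mean of at least 5 CPM over these libraries. Nqo1 passed only through the RANKL groups, since no other library exceeded 3.53 CPM, so its r values rest mainly on those groups. For Nfe2l2 they were Zfp62 (0.967), Bmi1 (0.958) and Naip6 (0.935). Among the members themselves, Gclc and Srxn1 varied together (0.97), as did Keap1 and Sod2 (0.88), whereas Nfe2l2 correlated with Keap1 at 0.31, with Nqo1 at -0.24 and with Txnrd1 at 0.04, and Sod2 with Nqo1 at -0.07.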

How the data were processed

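RNA-seq of 44 BMDM libraries was analysed from 4 deposited tables of gene counts. The authors counted, as the headers say, raw reads over exons of RefSeq transcripts, with 1 transcript per gene, not normalized, and HOMER, STAR, DESeq2 and mm10 are named in the submitters' processing notes. The study's methods say that counting used strand, whereas the headers name no strand option, so it was not settled whether reads of overlapping antisense genes are included. All columns were assigned to a sample by name, and columns of other samples numbered 0. The labels do not say whether replicates came from separate animals, so p-values measure the spread between these samples, which may be technical. The replicate numbers did not pair the samples. Columns with comparisons made by the authors were not used.

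Each table was fitted on its own in R 4.3.3 with edgeR 4.0.16 (filterByExpr, TMM, robust quasi-likelihood F-test of all groups, 2-sided) and adjusted by Benjamini-Hochberg over 13407 (NCoR), 12196 (RGFP966), 12205 (Pgc1b) or 12332 (TBK1i) genes. Genes were called at an adjusted p under 0.05 with more than 1.5-fold change. The biological coefficient of variation was 0.0421, 0.0433, 0.0665 and 0.031 in these tables. Errors of log2 fold changes are SE. With 2 against 2 libraries an exact permutation test cannot go below p = 0.333, so the tests borrow their dispersion from the other genes. CPM are TMM-scaled within a table, and levels in different tables were not tested against each other. Floors and depth cover counting error only.

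For each comparison all 10 members are given by value or within a range. Of the other lists at most 2 genes called higher and 2 lower are named for each list and comparison, those with the largest change among genes whose mean reached 5 CPM in either group, and the 3 genes most like Sod2, Nqo1 and Nfe2l2 by correlation. The members and lists were chosen with earlier results of these data known, and so were the comparisons. Other settings were DESeq2's size factors, library totals without TMM, DESeq2 1.42.0, other filters, no fold threshold, a block on the replicate number, the compared groups alone, each library left out in turn and other controls for NKO_KLA. The fits were tested on simulated data. Promoter sequences came from a RefSeq table (GRCm38.p6), and figures were drawn with matplotlib 3.10.9 in Python 3.11.15.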

Additional observations from a re-analysis of the deposited data

Results flagged for a closer look

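The response to the loss of NCoR differed between KLA and vehicle for 7 members by edgeR's quasi-likelihood test of the interaction, where 36.9% of all genes were called. On the log2 scale the NKO effect under KLA minus that under vehicle was -4.07 for Slc7a11, -1.60 for Nfe2l2, -1.50 for Gclc, -1.24 for Txnrd1, -1.14 for Srxn1, -0.69 for Sod2 and 1.21 for Keap1. The Sod2 value was -0.42 without WT_Veh replicate 1, and it was not called with only the compared groups in the fit. NKO_KLA carried a date stamp 1401 days before WT_KLA and the pattern of male cells, which cannot be told apart from the genotype in this contrast.

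In the libraries labelled Pgc1b_flox_Cre, the Cre effect under KLA minus that under vehicle was -1.48 for Keap1 and -0.87 for Gclm. These were the members called in this interaction, where 22.8% of all genes were called. Groups of 2 libraries were too small to look for single outlying libraries.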

How the results depend on the processing

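Outside the cases given here the number of members called stayed within 1.5 times its value. Without the fold threshold it went from 1 to 5 for WT_IFNb, from 4 to 7 for WT_IL4, from 1 to 4 for NKO_Veh, from 3 to 8 for NKO_PolyIC, from 0 to 1 for NKO_IFNb, from 0 to 5 for NKO_IL4 and from 2 to 6 for Pgc1b_flox_Cre_KLA, and in the interactions from 0 to 4 with RANKL, from 0 to 5 with poly I:C, from 0 to 1 with IL4 and from 2 to 6 for Pgc1b with KLA. With library totals in place of TMM it became 2 for WT_IFNb, 0 for NKO_RANKL and 2 for the interaction with poly I:C. For WT_IL4 it became 2 with DESeq2, with its size factors and with only the compared groups, since Gclm and Srxn1 lay at the threshold; elsewhere the cause was not tested. Of the values called in the main fit or in the other setting, 3 turned their direction. These were Prdx1 in KLA against Veh (-0.026) and Nfe2l2 in DMSO_KLA against DMSO_Veh (-0.021), both with library totals, and Prdx1 in NKO_KLA with Pgc1b_flox_KLA as control (-1.60). Changes of sign in values called in neither were not counted. Beside the shifts given for KLA, poly I:C and TBK1i, library totals moved the median gene by 0.20 in Pgc1b_flox_Cre_KLA, 0.23 in its interaction and -0.11 in WT_IFNb. With WT_KLA itself in the joint fit, a setting chosen after seeing the data, 7 members were called in NKO_KLA.

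With each library left out in turn the number of members called ran from 8 to 8 for WT_KLA and WT_RANKL, 6 to 7 for WT_PolyIC, 1 to 3 for WT_IFNb, 4 to 4 for WT_IL4, 7 to 8 for KLA and Pgc1b_flox_KLA, 6 to 6 for DMSO_KLA, 1 to 1 for NKO_Veh, 7 to 8 for NKO_KLA, 1 to 3 for NKO_RANKL, 3 to 4 for NKO_PolyIC, 0 to 1 for NKO_IFNb, 0 to 0 for NKO_IL4, 8 to 9 for RGFP966_KLA, 0 to 0 for Pgc1b_flox_Cre_Veh, 2 to 2 for Pgc1b_flox_Cre_KLA and 6 to 7 for TBK1i_KLA, and in the interactions 6 to 7 with KLA, 0 to 1 with RANKL, 0 to 2 with poly I:C, 0 to 0 with IFNb, 0 to 1 with IL4 and 2 to 3 for Pgc1b. For WT_IL4 the number hides exchanges, since Srxn1 gave way to Sod2 without WT_Veh replicate 1 and Gclm to Txnrd1 without WT_Veh replicate 2 or WT_IL4 replicate 2. Fits without a library assume that the lone sample varies like the others.

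With the replicate number as a block the counts were the same in every comparison, for example 8 for WT_KLA and 7 for NKO_KLA. The labels share numbers between groups, but samples with the same number did not deviate together (correlations from -0.07 to 0.06), so the numbers do not pair the samples.

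Counts over all genes moved by more than 1.5 times in some settings. Without the fold threshold they went from 5873 to 9236 for WT_RANKL, 867 to 3402 for WT_IFNb, 1755 to 4259 for WT_IL4, 832 to 2690 for NKO_Veh, 5367 to 8062 for NKO_KLA, 1770 to 4594 for NKO_RANKL, 795 to 2675 for NKO_PolyIC, 510 to 1806 for NKO_IFNb, 568 to 2299 for NKO_IL4, 3097 to 6214 for RGFP966_KLA, 37 to 90 for Pgc1b_flox_Cre_Veh, 3182 to 5184 for Pgc1b_flox_Cre_KLA and 4112 to 7136 for TBK1i_KLA, and in the interactions from 1908 to 3827 (RANKL), 434 to 1325 (poly I:C), 81 to 270 (IFNb) and 81 to 483 (IL4). A filter on a mean of 5 CPM gave 1168 for NKO_RANKL by testing fewer genes, and only the compared groups gave 57 for Pgc1b_flox_Cre_Veh and 34 for the IFNb interaction. Leaving out a library gave 19 or 21 for Pgc1b_flox_Cre_Veh, 36 to 258 for the IFNb interaction and 279 for the IL4 interaction.

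With 2 libraries a group, depth limits Nqo1 most, which held 6 counts in its lowest library, and a difference in a gene of that level was detectable only where it was large.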
